A study of Mus musculus with 8 samples.

Results

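The 10 genes described here make eicosanoids, the oxygenated signaling lipids that cells produce from arachidonate. They were chosen by name from the table of bulk RNA-seq counts, in which all 10 of them were present among 15576 genes. They are Alox5, Alox5ap, Lta4h and Ltc4s of the leukotriene pathway, the lipoxygenase genes Alox12 and Alox15, and Ptgs1, Ptgs2, Ptges and Hpgds of the prostanoid pathway. Of cells labeled stem cells, which the study calls leukemic stem cells (LSCs), 4 untreated CML libraries were compared with 4 CML-TKI libraries, to ask which genes differ in the cells that persist under imatinib (IM), a tyrosine kinase inhibitor.

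The mouse model, labeled C57BL/6, carries both transgenes BCR-ABL and SCL-tTA, so that removal of tetracycline turns on BCR-ABL under the stem cell driver SCL. CML mice were labeled untreated, and CML-TKI mice were labeled as given IM at 400 mg/kg on alternate days for 4 weeks (30 days in the treatment text). Other descriptions of the study name a lower dose as well. Age and sex were not given for these libraries, and nothing states whether each library is a separate mouse, so that the p-values measure the spread between these libraries only. The labels describe a sorted Lin-Sca1+cKit+Flt3-CD150-CD48+ population, while the paper defines LSCs by the opposite CD150 and CD48 phenotype. Columns carry the numbers of the labels except for 1 CML column named 5, a number no label uses, which is called CML 5 here.

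In outline, phospholipase A2 frees arachidonate from membranes. The enzyme 5-lipoxygenase (Alox5), helped by its membrane partner FLAP (Alox5ap), turns it into leukotriene A4, which Lta4h hydrolyzes to leukotriene B4, a neutrophil attractant, or Ltc4s joins to glutathione to start the cysteinyl leukotrienes. Cyclooxygenases (Ptgs1, Ptgs2) instead make prostaglandin H2, the common precursor of prostaglandins and thromboxane. Myeloid cells are the main source of leukotrienes and platelets of thromboxane, and Alox5 is known as a gene that CML stem cells of mice depend on.

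Library totals ran from 1041552 counts in CML-TKI 3 to 8620101 in CML 5. The ribosomal RNA gene Rn45s took 38.3% of the counts in CML 5 and 20.2% to 23.1% in the other CML libraries. In CML-TKI libraries it took 9.23% to 22.5%, so that totals overstate the usable depth unequally. Levels are given as CPM (counts scaled to the library total after TMM normalization), and 3 counts, taken as the floor, were worth between 0.409 and 0.580 CPM in CML libraries and between 0.570 and 3.29 CPM in CML-TKI libraries, covering counting error only. A principal component analysis placed CML-TKI 1 (19.2 on the leading component) between the untreated libraries (69.3 to 74.4) and the rest of the treated ones (-118.8 to -70.1). CML 1 to 3 differed little, with a biological coefficient of variation of 11.01% that came to 28.1% with CML 5 and was 68.6% among CML-TKI libraries. Slamf1, which encodes CD150, lay between 29.01 and 37.7 CPM in CML and between 0.620 and 6.58 CPM in CML-TKI libraries, and Cd48 between 3.86 and 6.40 CPM and between 39.9 and 178.2 CPM. Both genes of the gate thus differed between the groups (log2 fold change -3.42 and 4.35, adjusted p = 0.00797 and 8.70e-04 by edgeR), and the summed HSC markers were at 46.5 to 370.4 CPM in CML-TKI against 1152 to 1508 CPM in CML libraries. The markers of the CML-TKI libraries thus go against an LSC name, though Slamf1 and Cd48 there match the labeled CD150-CD48+ gate. In the CML libraries the same genes match the paper's LSC phenotype and go against that gate. Whether both groups were sorted alike is not known, and a difference in sort cannot be told apart from treatment in the fold changes below. Both groups are called by their labels. Of 11937 genes tested with edgeR's quasi-likelihood test, 10.2% differed at a Benjamini-Hochberg adjusted p under 0.05 (6.29% higher and 3.93% lower in CML-TKI). In bulk libraries fewer cells of a type and less RNA per cell cannot be told apart.

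Of the 10 members, 8 passed the filter on low counts and 3 of these differed, all of them higher in the CML-TKI libraries: Alox5, Lta4h and Alox15. None of the 8 was called lower by edgeR, although 2 members, Ptgs1 and Ptges, were lower at an unadjusted p under 0.05. So were 1439 of all 11937 genes tested. DESeq2 called none of them lower and limma-voom called 1, Ptgs1. Without overlap between the groups 3 members were higher, against 10.3% of all genes tested, and 3 were lower (Ptgs1, Ptges and Hpgds), against 13.1% (23.4% in either direction). For Ptges and Hpgds this separation is not resolved in CML-TKI 3, where 0 and 3 counts allow a level within the CML range. The median log2 fold change of the 8 members was -0.14, with 4 above and 4 below 0, and over all genes tested it was -0.00026.

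**Figure D1:**
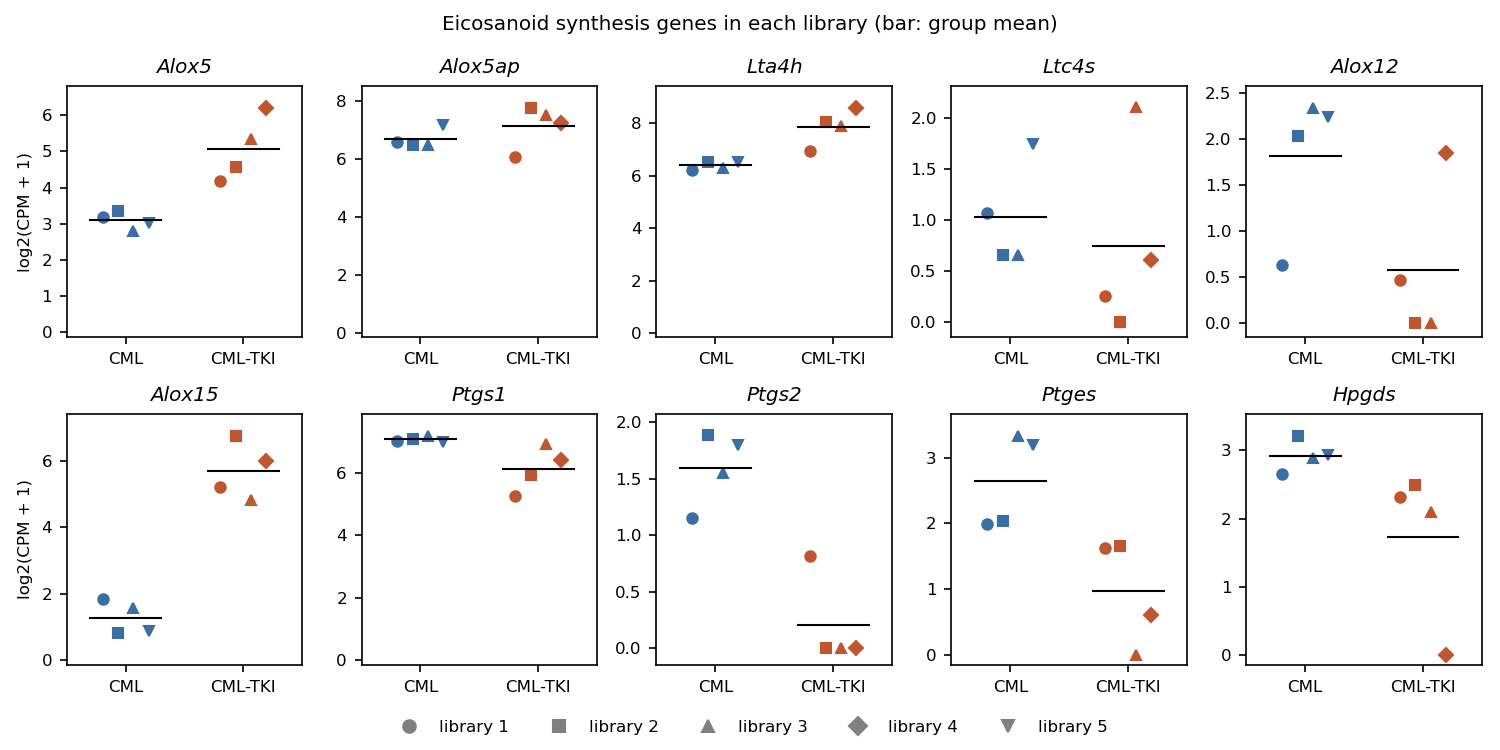
Level of each of the 10 members in every library, as log2(CPM + 1) on an axis of its own, with CML libraries in blue, CML-TKI libraries in orange, the mean of the 4 values as a bar and a symbol for each library number. Alox5, Lta4h and Alox15 sat higher in all 4 CML-TKI libraries than in any CML library, whereas the measured values of Ptgs1, Ptgs2, Ptges and Hpgds sat lower, those of Ptgs2 and Ptges with 0 counts in CML-TKI 3.

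The promoters of members on either side are shown first, because measured values of Alox5 and Lta4h lay above those of the CML libraries and measured values of Ptgs1 and Ptgs2 below them, Ptgs2 at too few counts to be tested. These are RefSeq windows of GRCm38.p6, 250 bases before and 50 after the transcription start, and 8 of the 10 members matched the promoter table, all except Alox5ap and Alox15. The windows of Ptgs1, Ptges and Hpgds lie inside the annotated genes, at starts downstream of the gene's outermost base. Capitals mark GAGGAA or TTCCTC, the core that the myeloid factor PU.1 binds, and GGGCGG or CCGCCC, a GC box.
Alox5 (chr6:116461129-116461428, - strand): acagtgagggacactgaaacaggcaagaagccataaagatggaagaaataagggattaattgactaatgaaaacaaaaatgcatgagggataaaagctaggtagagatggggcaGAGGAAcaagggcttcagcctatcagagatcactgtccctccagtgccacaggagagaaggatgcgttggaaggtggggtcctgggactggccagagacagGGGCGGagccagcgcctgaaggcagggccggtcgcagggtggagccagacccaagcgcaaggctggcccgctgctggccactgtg
Lta4h (chr10:93453146-93453445, + strand): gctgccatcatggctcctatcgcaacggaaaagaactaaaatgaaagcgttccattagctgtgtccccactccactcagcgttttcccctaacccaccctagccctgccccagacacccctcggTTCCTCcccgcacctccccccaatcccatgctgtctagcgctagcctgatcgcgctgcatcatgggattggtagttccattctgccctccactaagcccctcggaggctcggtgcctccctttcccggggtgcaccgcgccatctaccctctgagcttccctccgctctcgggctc
Ptgs1 (chr2:36230176-36230475, + strand): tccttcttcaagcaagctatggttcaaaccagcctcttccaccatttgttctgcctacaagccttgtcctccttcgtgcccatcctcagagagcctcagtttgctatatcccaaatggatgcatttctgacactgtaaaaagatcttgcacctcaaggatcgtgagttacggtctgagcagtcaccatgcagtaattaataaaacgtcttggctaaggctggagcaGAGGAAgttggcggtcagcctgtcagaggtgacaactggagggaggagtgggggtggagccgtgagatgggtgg
Ptgs2 (chr1:150099781-150100080, + strand): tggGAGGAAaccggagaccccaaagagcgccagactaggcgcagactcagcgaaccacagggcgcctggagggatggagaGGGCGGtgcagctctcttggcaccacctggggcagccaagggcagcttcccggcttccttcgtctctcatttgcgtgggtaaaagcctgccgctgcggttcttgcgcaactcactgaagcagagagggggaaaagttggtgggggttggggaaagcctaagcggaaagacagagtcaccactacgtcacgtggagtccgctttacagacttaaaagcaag

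The PU.1 hexamer stood in 8 of the 8 member promoters, and in 28.3% of the 32851 promoters of this length. These 8 include Alox5 and Lta4h, called higher, and Ptgs1, Ptgs2, Ptges and Hpgds, whose measured values were lower. The hexamer thus does not separate the directions. In Alox5 it began at position -136 and in Ptgs1 at -24, counted from the start site at 1. A GC box was found in 4 of the 8 (Alox5, Alox12, Ptgs2 and Ptges) and in 35.7% of all promoters. The STAT core TTCNNNGAA, the GATA core AGATAA (or TTATCT) and TATAAA (or TTTATA) were in none of the 8, and in 8.30%, 11.2% and 13.6% of all promoters. Matches are to letters only, on either strand, and the motifs were chosen with the expression results known.

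Alox5 is encoded on the minus strand of chromosome 6 from 116410071 to 116461178 (GRCm38), with 14 exons. Its level was 8.03, 9.26, 5.99 and 7.15 CPM in CML 1, 2, 3 and 5, and 17.1, 22.9, 39.5 and 72.3 CPM in CML-TKI 1 to 4. Every treated library exceeded every untreated one, and CML-TKI 4, with 278 counts, held the most. The group means were 7.61 ± 1.38 CPM (SD, n = 4) and 38.0 ± 24.8 CPM (SD, n = 4). On the log2 scale the fold change was 2.31 with a standard error of 0.48, at an adjusted p of 0.0145 by edgeR's quasi-likelihood test. Leaving out 1 library gave estimates from 1.77 to 2.56, but the call was lost without CML 1 (adjusted p = 0.0544), CML 3 (0.0567) or CML 5 (0.0505), and with the like CML 1 to 3 summed to a single library (0.195). It was kept without CML 5 and CML-TKI 1 together.

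Lta4h, on chromosome 10 from 93453396 to 93484896 with 19 exons, encodes the hydrolase that makes leukotriene B4. It had 73.9, 91.9, 77.9 and 90.2 CPM in CML 1, 2, 3 and 5 and 120.4, 260.9, 238.9 and 376.7 CPM in CML-TKI 1 to 4. As for Alox5, CML-TKI 1 was the lowest and CML-TKI 4 the highest of the treated libraries, and the groups did not overlap. Means were 83.5 ± 8.90 CPM (SD, n = 4) in CML and 249.2 ± 105.02 CPM (SD, n = 4) after IM, which is 1.58 as log2 fold change (standard error 0.32, adjusted p = 0.0131 by edgeR). It was lost from the calls without CML 1 (adjusted p = 0.0564) or CML 3 (0.0523) and with CML 1 to 3 summed (0.202), with estimates from 1.30 to 1.81 over the fits that left out 1 library.

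Alox5ap, whose product FLAP presents arachidonate to 5-lipoxygenase, was not called. The gene lies on chromosome 5 from 149265004 to 149288153, and it had 94.2, 88.6, 87.5 and 143.7 CPM in CML 1, 2, 3 and 5 and 66.5, 212.9, 181.9 and 149.1 CPM in CML-TKI 1 to 4. The groups overlapped, since CML-TKI 1 was below every CML library and the other CML-TKI libraries above them. The log2 fold change was 0.56 (95% interval -0.22 to 1.33, adjusted p = 0.351 by edgeR). Without CML-TKI 1 it was 0.80 with an adjusted p of 0.0479, and without CML 5 and CML-TKI 1 it was 1.01 with an adjusted p of 0.00924, a setting chosen after the data were seen.

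Ltc4s, the synthase that opens the cysteinyl leukotriene branch, was close to the floor. The gene lies on chromosome 11 from 50236461 to 50238532. It had 8, 3, 3 and 17 counts in CML 1, 2, 3 and 5 and 1, 0, 3 and 2 counts in CML-TKI 1 to 4, and it did not pass the filter. A difference was not detectable at this depth. Without a filter the log2 fold change was -0.61 (adjusted p = 0.812 by edgeR), and DESeq2 gave -0.59 (adjusted p = 0.836). A GENCODE antisense gene, Gm26542, covers 1664 bases of the locus, and whether counting used strand is not stated, so that reads of either could be included. GENCODE also places Gm19719 antisense over Alox5ap, Gm43621 opposite Ptgs1, and the pseudogenes Gm13400 and Gm17147 over Ptges and Hpgds, none of them listed in the table.

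Per kilobase of transcript, which allows levels of different genes to be set side by side, Alox5ap was the highest of the leukotriene genes in untreated libraries. In CML libraries Alox5ap had 82.7 ± 21.5 CPM per kb (SD, n = 4), Lta4h 41.1 ± 4.39, Alox5 2.70 ± 0.49 and Ltc4s 1.77 ± 1.28, the last pair within their spread. In treated libraries Lta4h (122.8 ± 51.8 CPM per kb, SD, n = 4) and Alox5ap (121.98 ± 50.4) were level within their spread, Alox5 reached 13.5 ± 8.79 and Ltc4s was at 1.54 ± 2.37. The per-length ratio of Alox5ap to Alox5 was 26.4, 21.6, 33.0 and 45.3 in CML 1, 2, 3 and 5 and 8.77, 20.9, 10.4 and 4.65 in CML-TKI 1 to 4. All CML-TKI ratios were therefore lower than all CML ratios, although CML-TKI 2 and CML 2 nearly met.

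Alox15 changed most among the members. It encodes the 12/15-lipoxygenase of mouse macrophages and eosinophils, lies on chromosome 11 from 70344147 to 70390538 and has 14 exons. Counts were 19, 4, 10 and 6 in CML 1, 2, 3 and 5, which are 2.59, 0.772, 1.93 and 0.825 CPM. In CML-TKI 1 to 4 it had 35.9, 106.0, 27.4 and 63.2 CPM, far above every CML library. Its log2 fold change was 5.22 (95% interval 3.88 to 6.57, adjusted p = 0.00104 by edgeR), and fits that left out 1 library gave 4.76 to 5.62 at adjusted p up to 0.00888.

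Alox12, the platelet-type 12-lipoxygenase gene, is a neighbor of Alox15 on chromosome 11 (70241457 to 70255380) and was not called. CML libraries had 4, 16, 21 and 27 counts, and CML-TKI 1 to 4 had 2, 0, 0 and 10. The groups overlapped because CML 1 was low and CML-TKI 4 high. The log2 fold change was -1.70 with a 95% interval from -4.19 to 0.79 (adjusted p = 0.376 by edgeR), which allows a fall or a small rise. Without CML-TKI 4 it was -3.71 (adjusted p = 0.0966). Per kilobase Alox12 (0.950 ± 0.53 CPM, SD, n = 4) and Alox15 (0.635 ± 0.37) lay within their spread of each other in CML libraries, at the low end of the members, while after IM Alox12 stood at 0.248 ± 0.42 and Alox15 at 24.1 ± 14.7, beside Ptgs1.

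**Figure D2:**
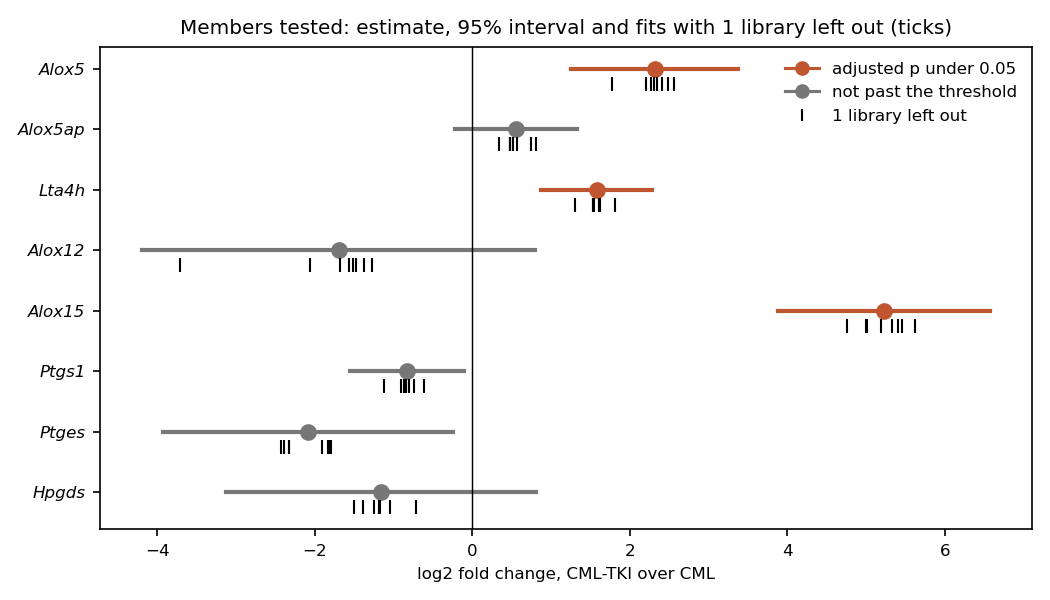
Log2 fold change of CML-TKI over CML for the 8 members tested (points), with 95% intervals (lines) and the estimates with 1 library left out in turn (ticks). Alox5 (2.31), Lta4h (1.58) and Alox15 (5.22) passed the threshold, and no tick crossed 0 for any of the 8.

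Ptgs1 encodes COX-1, the constitutive cyclooxygenase, and was the most abundant prostanoid member. It spans chromosome 2 from 36216742 to 36258593, and it had 129.5, 132.8, 142.8 and 125.9 CPM in CML 1, 2, 3 and 5 and 36.8, 59.8, 120.6 and 84.5 CPM in CML-TKI 1 to 4. Every CML-TKI library was below every CML library, with CML-TKI 3 nearest to them. The log2 fold change was -0.83 (standard error 0.32, 95% interval -1.56 to -0.11) and missed the threshold (adjusted p = 0.137 by edgeR). Limma-voom with quality weights called it (log2 fold change -0.94, adjusted p = 0.0135), as did edgeR without CML-TKI 3 (-1.13, adjusted p = 0.0435).

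Ptgs2, on chromosome 1 from 150100031 to 150108234, encodes the inducible COX-2 and was barely detected. CML 1, 2, 3 and 5 had 9, 14, 10 and 18 counts, CML-TKI 1 had 4 and the other CML-TKI libraries had 0, so that it did not pass the filter. In CML-TKI 3 the floor of 3.29 CPM lies above the level of every CML library (1.23 to 2.70 CPM), and a lower level was not detectable there. With genes of low count kept in, the log2 fold change was -2.99 (adjusted p = 0.167 by edgeR). It also passed the filter in 6 other edgeR fits and was called in 1 of them, without CML-TKI 1 (adjusted p = 0.0221). The others gave 0.221 without CML 1, 0.185, 0.154 and 0.184 without CML-TKI 2, 3 and 4, and 0.124 with a filter of 1 CPM in 4 libraries, and DESeq2 gave 0.147.

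Ptges, the inducible prostaglandin E synthase, and Hpgds, the hematopoietic prostaglandin D synthase of mast cells and megakaryocytes, were low, with measured values below those of every CML library. Ptges (chromosome 2, 30889471 to 30931020) had 2.996, 3.09, 9.08 and 8.11 CPM in CML 1, 2, 3 and 5 and 2.09, 2.17, 0 and 0.520 CPM in CML-TKI 1 to 4. In CML-TKI 3 the floor of 3.29 CPM lies above CML 1 and CML 2, so that a lower level was not detectable there. Its log2 fold change of -2.09 (standard error 0.83) missed the threshold (adjusted p = 0.142 by edgeR). Hpgds (chromosome 6, 65117293 to 65144981) had 5.31, 8.30, 6.38 and 6.60 CPM in CML and 3.99, 4.65, 3.29 and 0 CPM in CML-TKI libraries. The 3.29 CPM of CML-TKI 3 are the 3 counts of the floor, which allow a level within the CML range, and the log2 fold change of -1.16 (95% interval -3.13 to 0.81) had an adjusted p of 0.450 (edgeR). Per kilobase, Ptgs1 stood at 46.3 ± 2.53 CPM (SD, n = 4) in CML libraries, far above Hpgds (1.91 ± 0.36), Ptges (1.60 ± 0.89) and Ptgs2 (0.468 ± 0.15), and at 26.3 ± 12.5 in CML-TKI libraries.

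The wider pathway was read from a list of 77 eicosanoid genes that includes the members, of which 66 were in the table and 46 were tested. The list was chosen with earlier results of these data known, so that its share of calls is a description only. Of the 46, 11 were higher and 5 lower in CML-TKI libraries, 34.8% of those tested where 10.2% of all genes were called. Without the members 13 of 38 were called, 8 higher and 5 lower. By step, 5 of 9 leukotriene and lipoxygenase synthesis genes were higher and none lower, 1 of 8 prostanoid synthesis genes was lower and none higher, and 2 of 3 leukotriene receptor genes were higher. Those receptor genes, Ltb4r1 and Cysltr1, were low in CML libraries and passed the filter through the CML-TKI libraries, which shapes that share. Of 6 prostanoid receptor genes 1 was higher and 3 were lower, and of 5 genes for leukotriene conversion, inactivation and export 1 was higher and 1 lower. Release and reacylation had 1 of 11 and prostanoid inactivation and transport 1 of 4 higher, and none lower. The list's median was 0.13 on the log2 scale.

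On the leukotriene side, Ltb4r1, the high-affinity receptor for leukotriene B4, rose from between 1.74 and 3.13 CPM in CML to 22.6, 79.03, 24.1 and 85.6 CPM in CML-TKI 1 to 4 (log2 fold change 4.42, standard error 0.56, adjusted p = 0.00154 by edgeR, and 0.0529 with CML 1 to 3 summed). Cysltr1, a receptor for cysteinyl leukotrienes, was also higher (log2 fold change 5.20, adjusted p = 0.0176), a value that rests on 7 counts in all CML libraries together and that lost the call without CML 1 or CML 3 (adjusted p = 0.0739 and 0.0693). Its estimates ran from 4.16 to 6.04 over the fits that left out 1 library. Cysltr2 had 16.6, 26.1, 21.1 and 9.35 CPM in CML, 5.51 CPM in CML-TKI 1 and 0 in the other CML-TKI libraries (adjusted p = 0.0918). Cyp4f18, a neutrophil enzyme that inactivates leukotriene B4, was higher with a log2 fold change of 6.16 (adjusted p = 0.00126, 13 counts in all CML libraries), as was Ptgr1, which also degrades it (2.23, adjusted p = 0.0104, and 0.0508 without CML 1). The transporter gene Abcc1, whose product exports leukotriene C4, was lower (-0.97, adjusted p = 0.0433), and it lost the call without any one of CML 1, 2, 3 or 5 or CML-TKI 2 (adjusted p up to 0.121), under scaling to total counts (0.111) and without a filter (0.0524).

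Further genes of this side were higher. Cotl1, whose product binds 5-lipoxygenase, had 45.6 ± 18.4 CPM (SD, n = 4) in CML and 132.4 ± 32.6 CPM (SD, n = 4) in treated libraries (log2 fold change 1.53, adjusted p = 0.0141 by edgeR). Its call was lost without CML 1, 2 or 3 (adjusted p up to 0.0578). Mgst1, of the same membrane protein family as FLAP, was higher (2.78, adjusted p = 0.0119, and 0.0509 without CML 1). Lpcat2, which re-esterifies lysophospholipids, was higher as well (3.54, adjusted p = 0.00331, and 0.0962 with CML 1 to 3 summed), the only call among 11 genes tested for release and reacylation. Pla2g4a, the cytosolic phospholipase A2 that frees arachidonate, had a log2 fold change of -1.54 without passing the threshold (adjusted p = 0.0657).

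In the prostanoid branch, thromboxane genes fell. Tbxas1, which converts prostaglandin H2 to thromboxane, had 126.8, 122.0, 120.01 and 153.2 CPM in CML 1, 2, 3 and 5 and 34.0, 10.5, 17.5 and 21.1 CPM in CML-TKI 1 to 4. The log2 fold change was -2.63 (standard error 0.34, adjusted p = 0.00181 by edgeR), and the call held in all fits that left out 1 library (adjusted p up to 0.0101) and under the other settings run. It was the only call among the 8 prostanoid synthesis genes tested. Tbxa2r, the thromboxane receptor gene, was lower too, at 37.1 ± 11.7 CPM (SD, n = 4) in CML and 2.14 ± 1.61 CPM (SD, n = 4) in treated libraries (log2 fold change -4.08, adjusted p = 0.00806, and 0.0978 with CML 1 to 3 summed). Within the libraries Tbxas1 per kilobase was 1.21 to 1.75 times Ptgs1 in CML and 1.33, 0.254, 0.210 and 0.359 times Ptgs1 in CML-TKI 1 to 4, so that CML-TKI 1 lay within the range of untreated libraries and the others below it.

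Prostanoid receptors went in different directions. The prostaglandin E2 receptor gene Ptger3 fell from 49.4 ± 2.74 CPM (SD, n = 4) to 12.04 ± 4.46 CPM (SD, n = 4), with a log2 fold change of -2.001 (adjusted p = 0.00423 by edgeR, and 0.106 with CML 1 to 3 summed). Ptger4 was just past the threshold (-1.15, adjusted p = 0.0490) and lost the call without any one of CML 1, 2, 3 or 5 or CML-TKI 2, 3 or 4 (adjusted p up to 0.145), under scaling to total counts (0.0628), without a filter (0.0570) and with counts thinned to the smallest total (0.118). The prostacyclin receptor gene Ptgir was higher (3.46, adjusted p = 0.0211), losing the call without CML 1, 2, 3 or 5 or CML-TKI 2 (adjusted p up to 0.0880). Ptger1 (-0.37, adjusted p = 0.423) and Ptger2 (2.25, adjusted p = 0.167) did not pass.

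**Figure D3:**
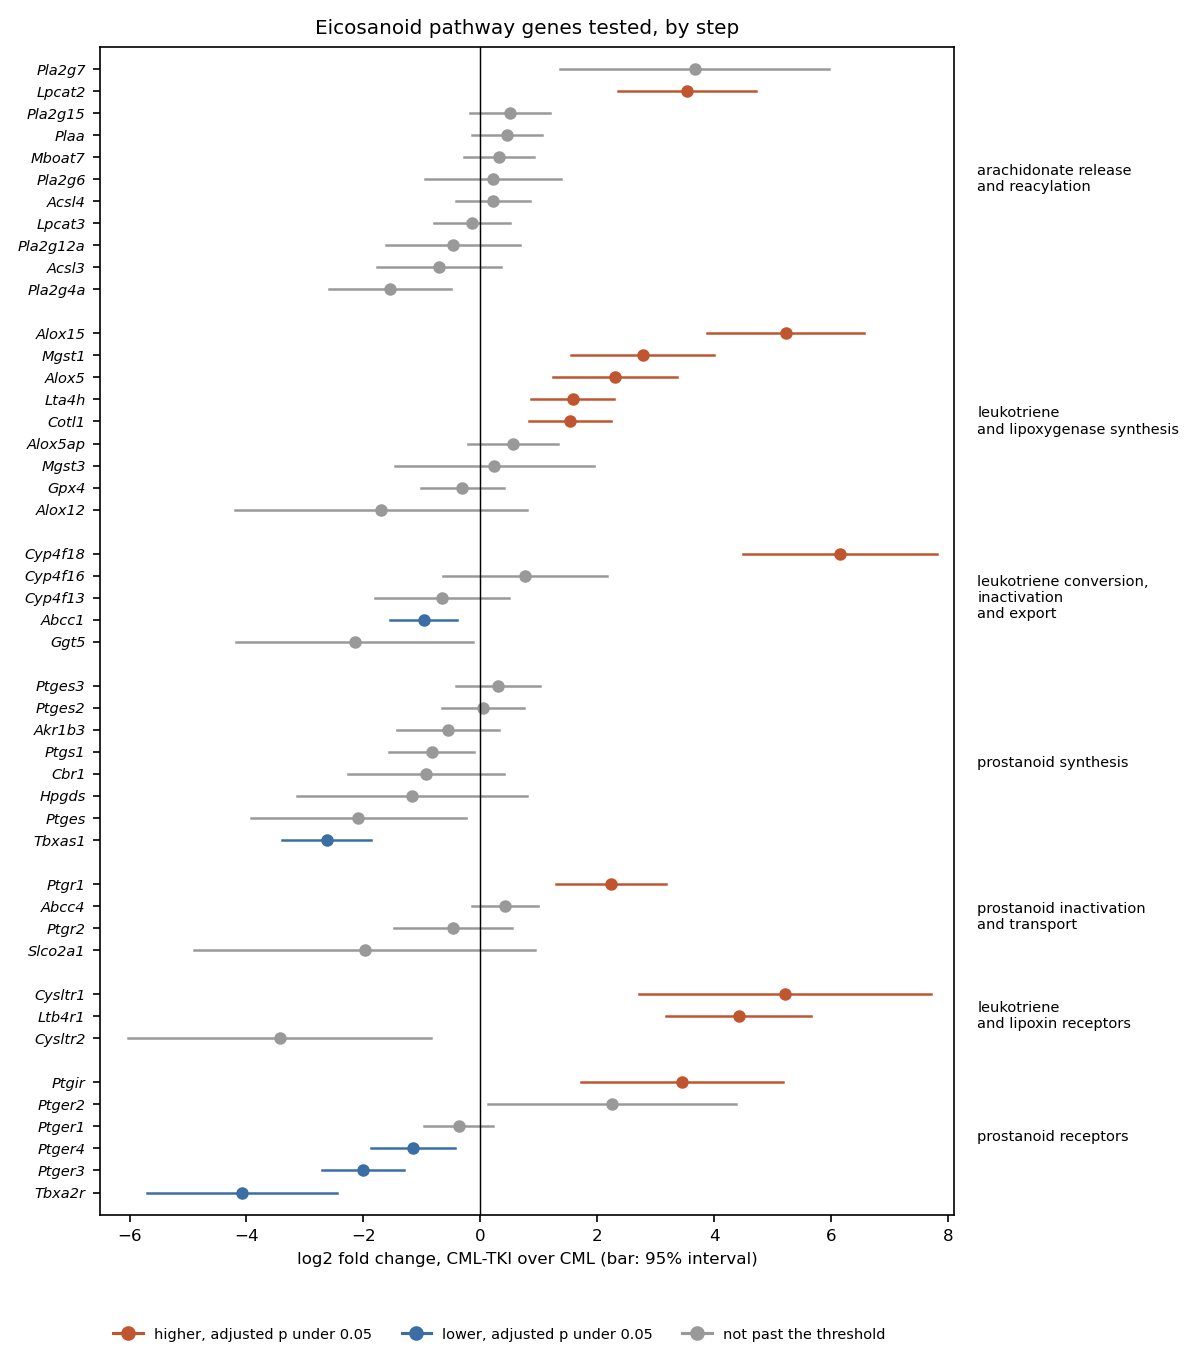
Log2 fold change of CML-TKI over CML (x axis, lines are 95% intervals) for the 46 eicosanoid genes tested, grouped by step and colored by call. Calls to the right fall mainly among leukotriene genes such as Ltb4r1 (4.42) and Cyp4f18 (6.16), and calls to the left include Tbxas1 (-2.63) and Tbxa2r (-4.08).

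Markers of myeloid cells were higher in the same libraries, although the labels describe a lineage-negative sort, which would remove mature cells. Elane and Mpo, granule genes of early granulocyte precursors, had log2 fold changes of 8.26 and 7.94 (adjusted p = 8.70e-04 and 0.00102 by edgeR). Granule genes of later stages were called higher as well, with smaller log2 fold changes, among them Lcn2 (2.82, adjusted p = 0.0112), Camp (2.63, 0.0457) and Ngp (2.43, 0.0370), and Ltf (2.37, adjusted p = 0.101) was the 1 gene of the list that did not pass. The summed level of 15 granulocyte markers lay between 194.2 and 319.4 CPM in CML and between 1571 and 8791 CPM in CML-TKI libraries, with 14 of 15 called higher, and that of 13 monocyte and macrophage markers between 253.8 and 338.6 CPM and between 1575 and 7888 CPM, with 12 called higher. CML-TKI 1, the lowest treated library for Alox5 and Lta4h, was also the lowest for both lists. The granulocyte sum was 1571, 8383, 8369 and 8791 CPM in CML-TKI 1 to 4, and the monocyte sum was 1575, 7888, 5477 and 4391 CPM, highest in CML-TKI 2. In CML-TKI 2 to 4 the granulocyte sums were thus close, whereas Alox5 had 22.9, 39.5 and 72.3 CPM and Lta4h 260.9, 238.9 and 376.7 CPM. The 7 eosinophil markers summed to between 5.79 and 42.3 CPM in CML libraries and to 946.1, 2001, 126.04 and 3102 CPM in CML-TKI 1 to 4 (6 of 6 tested higher), and CML-TKI 3 was the lowest treated library for them and for Alox15, while the highest was CML-TKI 4 for the sum and CML-TKI 2 for Alox15. The 8 basophil and mast cell markers in the table summed to between 6.46 and 12.9 CPM in CML, where Mcpt8 and Cd200r3 had no counts, and to between 144.7 and 1356 CPM in CML-TKI libraries (4 of 4 tested higher). Markers this low in CML libraries, such as Cd200r3 (0 counts) and the eosinophil marker Il5ra (1 count), passed the filter only through the CML-TKI libraries. Counts of calls among the tested markers were therefore shaped by the filter. The part of these cell types in the higher Alox5, Lta4h, Alox15, Ltb4r1 and Cyp4f18 was not tested.

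Markers of stem cells, megakaryocytes and endothelium held the lower calls. The 10 megakaryocyte and platelet markers in the table summed to between 1419 and 1736 CPM in CML libraries and to 354.2, 66.9, 123.8 and 857.98 CPM in CML-TKI 1 to 4 (2 of 9 tested called lower). The highest treated library was CML-TKI 4 for this sum, for Alox12 (10 counts there) and for Tbxa2r (15 counts there), but CML-TKI 3 for Ptgs1 and CML-TKI 1 for Tbxas1. The 10 HSC markers summed to between 1152 and 1508 CPM in CML and between 46.5 and 370.4 CPM in CML-TKI libraries (4 of 9 tested lower), and 2 of 8 endothelial and stromal markers were lower. The endothelial and stromal sum was 147.6, 96.9, 820.3 and 427.8 CPM in CML 1, 2, 3 and 5. It overlapped the CML-TKI libraries (62.3 to 199.5 CPM). CML 3 and 5 were the highest CML libraries for this sum and for Ptges. Kit was lower (log2 fold change -1.92, adjusted p = 8.70e-04 by edgeR) and Ly6a, for Sca1, had a log2 fold change of -1.12 (adjusted p = 0.373). No listed gene of the HSC, granulocyte, eosinophil or megakaryocyte lists was at 0 counts in a whole group. Lymphoid markers had 0 and erythroid markers 0 calls in edgeR's test. At an unadjusted p under 0.05 were 1 of 4 and 3 of 6 tested genes, against 3073 of all 11937 genes tested. CML-TKI 3 held 24936 CPM of erythroid markers against at most 423.3 CPM elsewhere, and 457.03 CPM of lymphoid markers against at most 109.0 CPM elsewhere. The part of these cell types in the lower Tbxas1, Tbxa2r and Ptgs1, and in Ptges, was not tested.

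**Figure D4:**
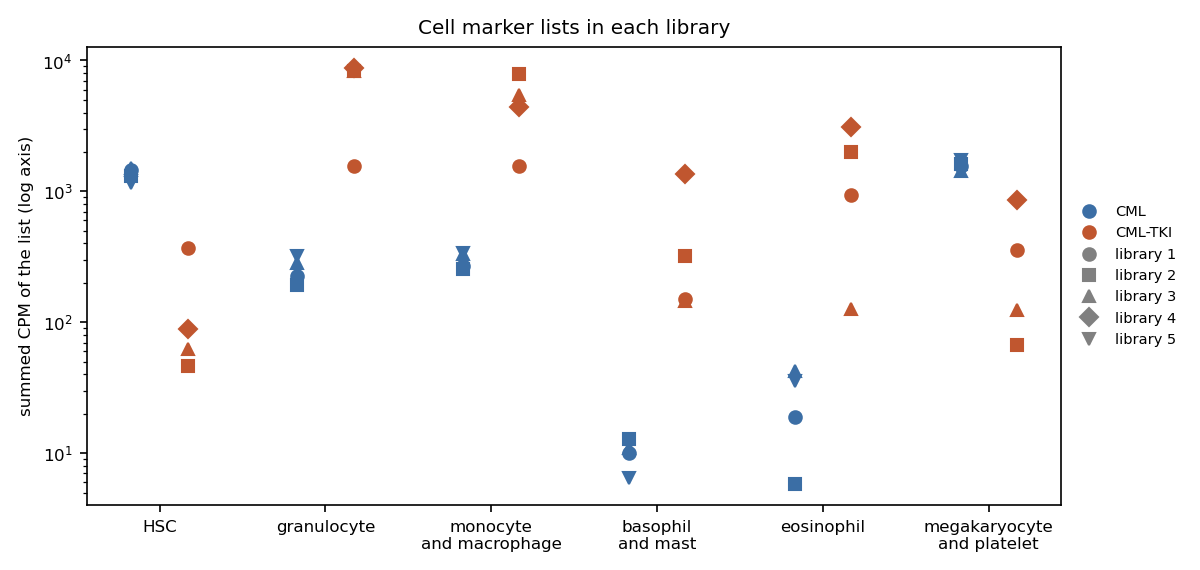
Summed CPM (log axis) of 6 cell marker lists in each library, with CML libraries in blue, CML-TKI libraries in orange and symbols for library numbers. All 4 treated libraries had lower HSC and megakaryocyte sums, and higher sums of the other 4 lists, than any untreated library, and CML-TKI 1 lay nearest to the CML libraries for the HSC, granulocyte and monocyte lists.

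The genes whose log2 CPM ran closest to a member over the 8 libraries were taken from the 10099 genes that averaged 3 or more in log2 CPM. For Alox5 they were Mcu, Cdh1 and Parvb (Pearson r = 0.97 for each), for Alox5ap Ddx41, Tuba4a and Coro1a (0.99, 0.99 and 0.98), and for Lta4h Adpgk, Cebpa and Fn1 (0.98 for each). Nearest to Alox15 were Nptn, the eosinophil ribonuclease gene Ear1 and Ltb4r1 (0.99, 0.99 and 0.99). All of these are descriptions over libraries that share the split between groups and differ in depth.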

How the data were processed

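Bulk RNA-seq of sorted cells was analyzed from the table of estimated counts per gene deposited by the authors, who used the RNeasy Plus kit, Nextera XT libraries, STAR 2.6.1d on mm10 and RefSeq transcripts in Partek Flow (Partek 8.0 in the submitters' processing notes). The deposited estimated counts are not normalized, and the rule by which genes were left out is not given in the sources used here. Between 7.74% and 21.9% of a library's values were not whole and were rounded.

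Counts were analyzed with edgeR 4.0.16 in R 4.3.3, using TMM, filterByExpr (minimum count 10, minimum total 15), robust quasi-likelihood fits and Benjamini-Hochberg adjustment over all genes tested. Standard errors are the log2 fold change over the square root of F. The test was checked on simulated data. DESeq2 1.42.0 and limma 3.58.1 were alternatives. Lengths are of the longest GENCODE transcript with a RefSeq match, and positions and promoters are from RefSeq GRCm38.p6.

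The members and gene lists were chosen with earlier results of these data known. Genes named are the members, pathway genes past the threshold or set beside them, marker genes, and for Alox5, Alox5ap and each member called the 3 genes most alike. Cysltr2, Pla2g4a, Ptger1, Ptger2, Ltf, Lcn2, Camp, Ngp, Mcpt8, Cd200r3 and Il5ra were named after their values were seen. Total counts per library ranged from 1041552 to 8620101, and no molecular identifiers are stated. Floors cover counting error only, whereas the intervals of fold changes include the spread between libraries.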

Additional observations from a re-analysis of the deposited data

Results flagged for a closer look

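In 46 groups of 4 libraries (10 members and 13 other pathway genes called, in either group), 6 held a library whose gap to the nearest other took up more of the group's range than Dixon's 95% critical value allows, where chance gives about 1 in 20 groups. For Alox5ap in CML, CML 5 lay apart (143.7 CPM against 87.5 to 94.2, ratio 0.881). For Ptger4 in CML, CML 2 was low (32.04 CPM against 41.5 to 43.3, ratio 0.844). The other 4 rest on few counts. These were Ltc4s in CML-TKI 3 (3.29 CPM against at most 0.520, ratio 0.842), Alox12 in CML-TKI 4 (2.602 CPM against at most 0.380, ratio 0.854), Ptgs2 in CML-TKI 1 (0.760 CPM against 0, ratio 1) and Cyp4f18 in CML 2 (0 against 0.580 to 0.687 CPM, ratio 0.843).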

How the results depend on the processing

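No member tested changed sign under any of the 20 alternatives in which it could be fitted. The number of genes called was 1220, and 2420 with DESeq2, 2563 with limma-voom, 122 with CML 1 to 3 summed to 1 library and 2362 without CML 5 and CML-TKI 1 (chosen after seeing the data). With 1 library left out it ran from 505 (without CML 1) to 2504 (without CML-TKI 1). Scaling to totals without Rn45s shifted all genes by a median of -0.14 (log2) and the split to 601 higher and 585 lower, against 751 and 469. The 3 members called became 1 (Alox15) with CML 1 to 3 summed, and 1 to 5 with 1 library left out. The 16 pathway genes called became 3 with CML 1 to 3 summed (Alox15, Cyp4f18 and Tbxas1), and 7 to 22 with 1 library left out. RLE, total counts, both other filters, thinning to the smallest total and DESeq2 kept the 3 members called. Pathway genes called lower fell from 5 to 3 under total counts and without a filter. They rose to 7 with DESeq2, 9 with limma-voom and 9 without CML-TKI 1. In either direction DESeq2 called 20 pathway genes and limma-voom 22.

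Nothing says that equal numbers pair mice. Own-number correlations of deviations were -0.022, 0.15 and 0.091, and not every library correlated best with its own number. With the replicate block on numbers 1 to 3, 193 genes, 0 members and 1 pathway gene, Tbxas1, were called (Alox15 adjusted p = 0.0610 by edgeR), against 589, 1 and 11 in the same 6 libraries without the block, added after seeing the data. The causes were not tested. Depth limits Ltc4s, Ptgs2, Alox12, Ptges and Hpgds most, in CML-TKI 3 above all.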
